A study of Mus musculus with 45 samples.

Results

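The Bcl2 family of apoptosis regulators was followed at the RNA level in NIH-3T3, a line of mouse embryonic fibroblasts, on 45 Affymetrix arrays in 11 groups. The members were the 10 genes Mcl1, Bcl2l1, Bcl2l2, Bcl2l11, Bad, Bax, Bak1, Bid, Bnip3 and Bnip3l. A probe set stood for a member where the platform annotation gave that symbol and no other, which gave 23 probe sets for 8 of the 10 genes, among 13232 genes with such a probe set on the array. No probe set was listed under Bax alone, and the 3 probe sets listed under Bnip3l also carried the symbol of its pseudogene, so neither gene has a value here. For each gene the probe set with the highest mean over the 45 arrays was described first, with other probe sets beside it where stated.

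All cells were NIH-3T3 of passages 5 to 15, plated at 40% density a day ahead, and the labels give no genotype. The labels of the 15 min, 60 min and 2F groups also carry the word mock, which they do not explain and which those of the 30 min and actinomycin D groups lack. Total RNA was taken before the experiment and after 1 h and 2 h of actinomycin D at 5 µg/ml, a drug that blocks transcription. In the other groups the cells received 4-thiouridine (4sU), a nucleoside that enters RNA made while it is present and lets that RNA be pulled out. Newly transcribed RNA was collected after 15 min and 30 min of 4sU at 500 µM and after 60 min at 200 µM. Total RNA was measured at 30 min and 60 min, and unlabelled pre-existing RNA at 60 min. A second 60 min experiment with newly transcribed and total RNA is marked 2F in the labels, which do not explain the mark. Total RNA of the 30 min, 60 min and 2F groups was taken after fresh medium with 4sU. Each group held 3 arrays, except newly transcribed and total RNA at 30 min with 9 each. The labels do not say whether replicates came from separate cultures, so p-values measure the spread between these arrays, which may be technical.

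Proteins of the Bcl2 family decide whether the outer mitochondrial membrane is opened and cytochrome c is released, the step that commits a cell to intrinsic apoptosis. Anti-apoptotic members (Mcl1, Bcl2l1 or Bcl-xL, Bcl2l2 or Bcl-w) hold in check the pore-forming effectors Bax and Bak1, and BH3-only members (Bcl2l11 or Bim, Bad, Bid) tip that balance. Bnip3 is a more distant relative that acts in mitophagy and is a known target of hypoxia-inducible factor. Mcl1 is known for a short-lived mRNA and a short-lived protein.

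The promoters of Mcl1 and Bnip3, members that lay on opposite sides of total RNA in the labelling experiments below, are shown as 300 bases each, from 250 before to 50 after a transcript start (RefSeq, GRCm38.p6), 5′ to 3′ on the gene's own strand. The Mcl1 window lies at chr3:95658471-95658770 on the plus strand, inside the annotated gene, which begins upstream of it at 95656944, with CCGGAA (the core bound by ETS factors) and TGACG (a cAMP response element core) in capitals on either strand. The Bnip3 window lies at chr7:138909457-138909756 on the minus strand, with GGGCGG (the GC box) and ACGTG (the core of the hypoxia response element) in capitals on either strand.
Mcl1: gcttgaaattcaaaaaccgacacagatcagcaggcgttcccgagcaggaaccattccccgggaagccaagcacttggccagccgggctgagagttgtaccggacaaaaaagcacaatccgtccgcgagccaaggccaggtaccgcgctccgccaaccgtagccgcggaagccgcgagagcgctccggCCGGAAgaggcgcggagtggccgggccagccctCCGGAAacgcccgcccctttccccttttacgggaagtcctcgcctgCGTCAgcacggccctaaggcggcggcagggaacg
Bnip3: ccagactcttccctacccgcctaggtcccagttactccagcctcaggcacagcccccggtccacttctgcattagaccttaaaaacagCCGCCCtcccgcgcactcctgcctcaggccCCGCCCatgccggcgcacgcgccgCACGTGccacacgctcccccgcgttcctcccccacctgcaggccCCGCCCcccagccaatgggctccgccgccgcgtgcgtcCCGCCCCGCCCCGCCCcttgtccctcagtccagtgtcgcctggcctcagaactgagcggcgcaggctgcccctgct
The Mcl1 window held CCGGAA 2 times and TGACG 1 time, against 14.9% and 20.8% of all 32851 such windows that held each at least once. The Bnip3 window held GGGCGG 6 times and ACGTG 2 times, the latter as 1 palindrome read on both strands, against 35.7% and 19.6% of windows. A match in letters is a description of the window, and no binding was measured. Windows were given for 9 of the 10 members. Among the others, GGGCGG occurred 3 or 4 times in a window of Bad, Bax, Bcl2l11 and Bid. ACGTG occurred 4 times in that of Bax, and CCGGAA 1 time in a window of Bad, Bcl2l1, Bcl2l11 and Bid. TGACG was found in that of Mcl1 alone, and the Bak1 window held none of these motifs.

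The arrays carried fibroblast RNA. As means of the untreated arrays, all 9 fibroblast markers measured were above an intensity of 32 (median 7634), against 0 of 3 epithelial, 0 of 2 endothelial and muscle and 0 of 1 leukocyte markers; Epcam, an epithelial marker, reached 40.95 on 1 array of the series. The median correlation of each array with the other arrays of its group was 0.920 or more in 9 groups. The other groups were total RNA at 60 min (0.904 to 0.947) and newly transcribed RNA at 60 min (0.861 to 0.922), and replicate 1 of the latter stood apart for several members. The 9 arrays per fraction at 30 min fell into sets of 3 by replicate number (1, 4, 7; 2, 5, 8; 3, 6, 9). Deviations from the group mean correlated at 0.607 to 0.896 within a set for total RNA and 0.460 to 0.722 for newly transcribed RNA, and at -0.708 to 0.038 and -0.715 to 0.459 between sets. The labels do not say what the sets are. Where sets share a source, p-values over 9 arrays are too small, so calls over set means (3 against 3) are given beside them, an analysis chosen after seeing the data.

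**Figure D1:**
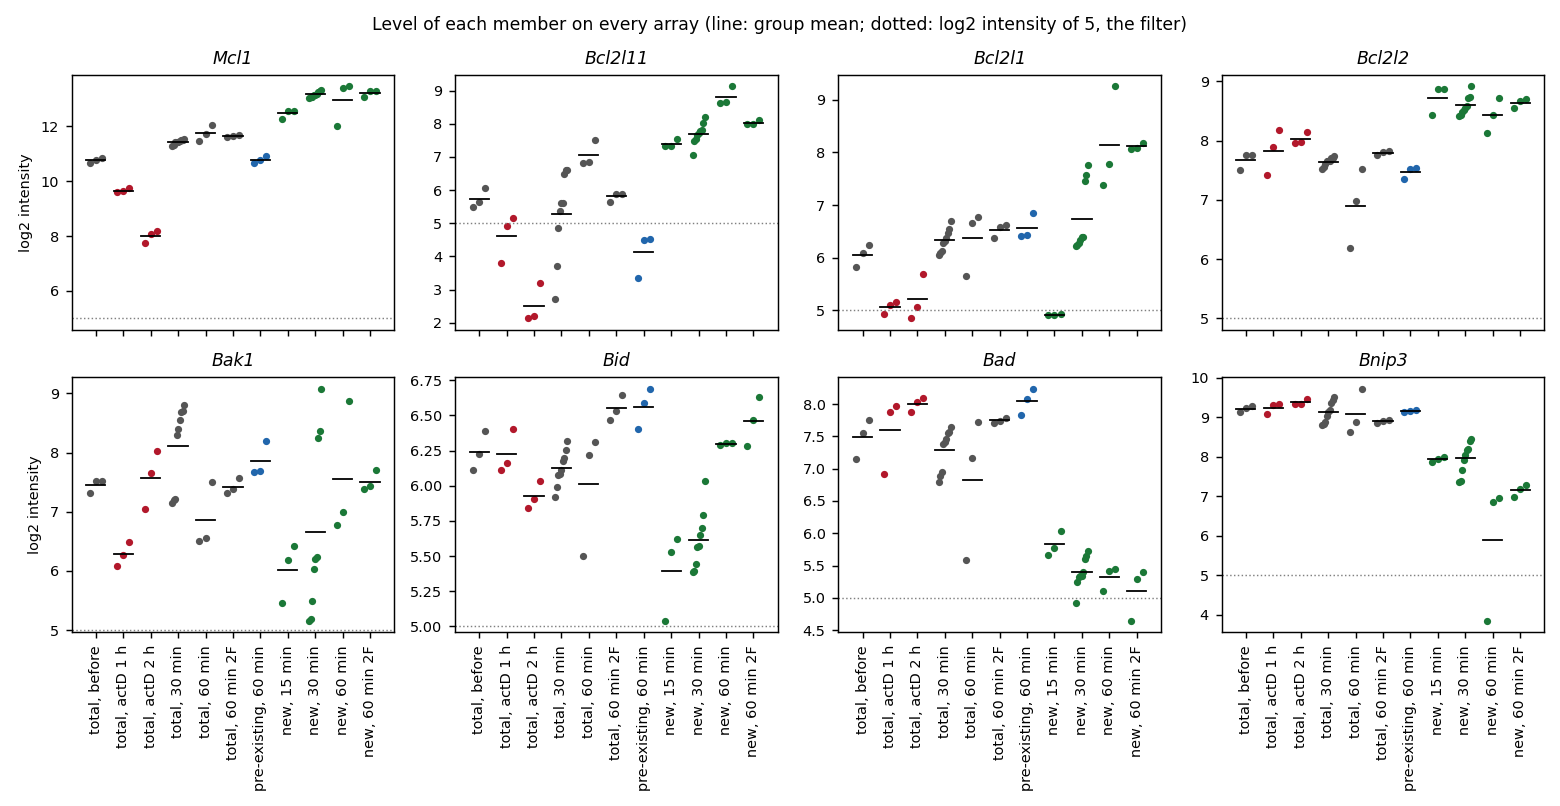
Level of the 8 measured members on every array, as log2 of the deposited GCRMA intensity; each point is 1 array, the black line the group mean, and the dotted line the filter at a mean log2 of 5. Colours mark total RNA (grey), total RNA after actinomycin D (red), pre-existing RNA (blue) and newly transcribed RNA (green). Mcl1 and Bcl2l11 were at their lowest after 2 h of actinomycin D and at their highest in newly transcribed RNA, whereas Bad and Bnip3 were at their lowest in newly transcribed RNA.

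Transcription was blocked with actinomycin D to see which of the mRNAs were lost. Among the 7 members that could be tested, Mcl1 fell after both times, Bak1 fell after 1 h and differed from its starting level by 0.12 ± 0.22 on the log2 scale at 2 h (adjusted p = 0.69, limma), and Bcl2l1 was lower by a little less than 2-fold. Bad, Bid, Bnip3 and Bcl2l2 did not pass. A change was called where the adjusted p was below 0.05 and the fold at least 2 in limma with Benjamini-Hochberg adjustment over all probe sets tested. At 1 h 2 of 7 members were called, against 6.15% of all probe sets. At 2 h 1 of 7 was called against 9.96%, and between 1 h and 2 h 2 of 7 against 9.6%. The members' median change at 2 h was 0.12 on the log2 scale, and that of all probe sets 0.0951.

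Mcl1, the anti-apoptotic member, had intensities of 1621, 1761 and 1853 before the drug, 775, 850 and 794 after 1 h and 215, 288 and 268 after 2 h. The groups did not overlap, and the level went down at each time. The log2 change was -1.11 ± 0.13 (SE, n = 3 and 3; adjusted p = 4.7e-04, limma) at 1 h, and between 1 h and 2 h it was -1.66 ± 0.13 (adjusted p = 2.1e-05, limma). At 2 h 14.7% of the starting signal was left. All 6 Mcl1 probe sets were called lower at 2 h, by -1.62 to -2.77 on the log2 scale, and 2 of the 6 at 1 h. Simple exponential loss over 2 h corresponds to an apparent half-life of 43.3 min (95% interval 39.3 to 48.2 min from the limma interval) for the headline probe set. That probe set lost the most of the 6, and with median centring its 2 h change was -2.44. The interval covers neither the other probe sets nor the scaling. For this probe set the loss was not even over time, since 46.2% was left at 1 h and 31.7% of that at 2 h. This was not shared by all Mcl1 probe sets. Another fell more in the first hour (-1.08) than in the second (-0.54), and another about evenly (-0.89 and -0.93). The remaining ones fell more in the second hour.

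Bcl2l11 encodes Bim, a BH3-only activator of apoptosis. Its probe set measured 50.12, 66.75 and 45.03 before the drug, 14.10, 35.48 and 30.16 at 1 h and 4.39, 9.17 and 4.59 at 2 h. The 3 arrays at 2 h lay below all others of these groups. With a mean log2 of 4.29 over these arrays Bcl2l11 did not pass the filter at 5 and so was not tested in the main analysis. Without the filter its log2 change was -1.11 ± 0.42 at 1 h (adjusted p = 0.11, limma) and -3.22 ± 0.42 at 2 h (adjusted p = 0.0018, limma). Of its 5 probe sets 3 were called lower at 2 h without the filter. The low signal at 2 h limits how exactly this loss is known.

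Bcl2l1, which encodes Bcl-xL, measured 68.34, 75.49 and 56.35 before the drug, 34.47, 35.44 and 30.32 at 1 h and 51.86, 28.71 and 33.56 at 2 h. Every treated array was below every untreated one. The log2 change was -0.99 ± 0.21 at 1 h (adjusted p = 0.0060, limma) and -0.85 ± 0.21 at 2 h (adjusted p = 0.011, limma), past the p threshold and short of 2-fold. It was called at 2 h without replicate 1 of the 2 h arrays, at -1.09. At 1 h it was called with quantile normalization (-1.03), without untreated replicate 3 (-1.11) and without 1 h replicate 1 (-1.01) or 2 (-1.04). With median centring, which raises every 2 h change by 0.33 because the 2 h arrays had the lowest medians (22.80 to 24.88), the 2 h value was -0.51 (adjusted p = 0.048, limma).

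Bak1, an effector that forms pores in the outer membrane, measured 184, 160 and 184 before the drug, 67.9, 76.7 and 89.8 at 1 h and 261, 132 and 202 at 2 h. The 1 h arrays were below all others, and the 2 h arrays spread to both sides of the untreated ones. Bak1 changed at 1 h by -1.18 ± 0.22 (adjusted p = 0.0038, limma) and rose between 1 h and 2 h by 1.30 ± 0.22 (adjusted p = 0.0016, limma). Both calls were lost in 1 fit over all 45 arrays. The values are relative to the other RNA on each array.

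Among the BH3-only members, Bad binds and blocks Bcl-xL when dephosphorylated and Bid links death receptors to mitochondria. Bad measured 142 to 216 before and 236 to 273 at 2 h, a log2 change of 0.52 ± 0.26 (adjusted p = 0.15, limma). Bid differed by -0.31 ± 0.12 (adjusted p = 0.072, limma), and its direction depended on the scaling, at -0.096 with quantile normalization and 0.02 with median centring. Bnip3 differed by 0.16 ± 0.11 (adjusted p = 0.28, limma) and Bcl2l2 by 0.35 ± 0.18 (adjusted p = 0.15, limma). With median centring Bad (0.85, adjusted p = 0.014), Bcl2l2 (0.69, adjusted p = 0.0089) and Bnip3 (0.49, adjusted p = 0.0038) passed the p threshold upward in limma, all short of 2-fold. By the definition used here, a short-lived member is one called lower at 2 h and a long-lived member one tested and not called. That made 1 member short-lived (Mcl1) and 6 long-lived, with Bcl2l11 left unclassed. Long-lived is a name for not being called, and the 95% interval of Bid reached down to -0.59 and that of Bcl2l1 to -1.31.

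**Figure D2:**
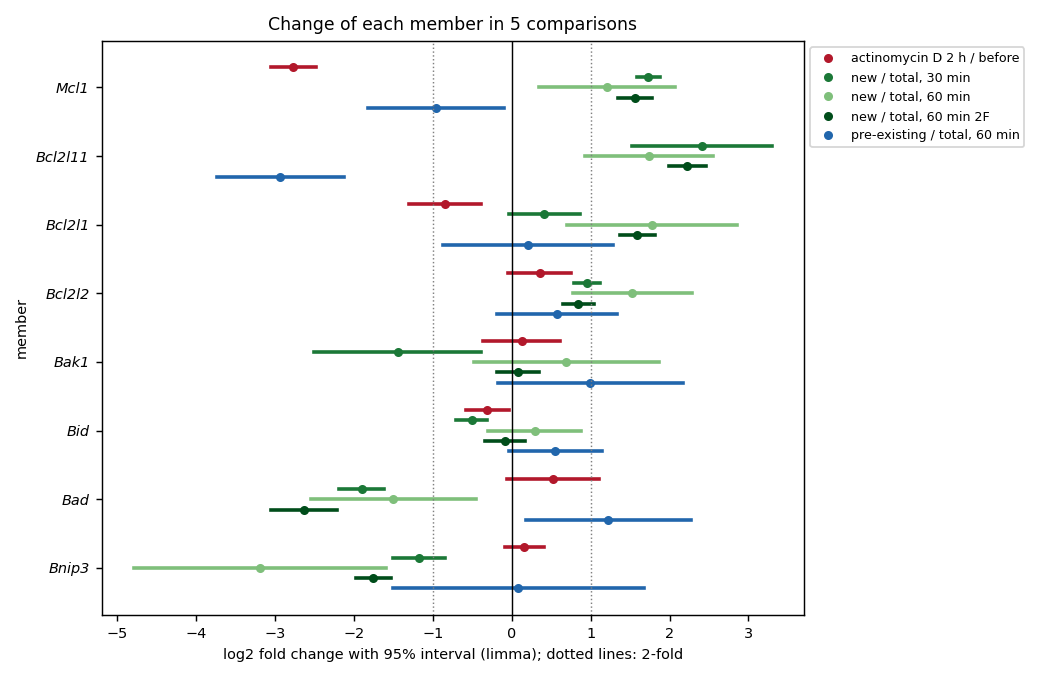
Log2 fold change of each measured member in 5 comparisons, with the 95% interval from limma; dotted lines mark 2-fold in either direction, and Bcl2l11 has no red point because it did not pass the filter among the actinomycin D arrays. Mcl1 and Bcl2l11 lie to the right in the 3 comparisons of newly transcribed with total RNA, and Bad and Bnip3 to the left.

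The 4sU arrays, which took no part in that classification, compared RNA made during labelling with total RNA of the same labelling time and dose. The labels do not say which arrays of the fractions came from the same culture. An mRNA that turns over fast makes up a larger part of new than of total RNA. So can an mRNA whose level rises during labelling, and these readings were not told apart. Mcl1 and Bcl2l11 were higher in newly transcribed RNA in all 3 experiments, and Bad and Bnip3 lower in all 3. Bcl2l1 was higher in 2 of 3, Bcl2l2 higher in 1, Bak1 lower in 1 and Bid called in none. At 30 min 5 of 8 members were called against 49.3% of all probe sets, at 60 min 6 of 8 against 39.5% and in the 2F experiment 5 of 8 against 45.8%. Calls were common among all probe sets in this contrast. The values are relative within each array, so they show rank against other RNA and not amount.

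Mcl1 in newly transcribed RNA at 30 min ranged from 8351 to 10137 with a median of 8936, and in total RNA from 2476 to 2933 with a median of 2772. The groups did not overlap. The log2 difference was 1.73 ± 0.07 (adjusted p = 3.7e-14, limma; adjusted p = 2.0e-04 over set means). By set it was 1.93, 1.63 and 1.64. All 6 Mcl1 probe sets were called higher in each of the 3 experiments, by 1.49 to 2.81 at 30 min, 1.21 to 2.28 at 60 min and 1.17 to 2.52 in the 2F experiment.

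At 60 min Mcl1 measured 4065, 11254 and 10855 in newly transcribed RNA and 2813, 4260 and 3370 in total RNA. Replicate 1 of the newly transcribed arrays lay below total RNA replicate 2, so the groups overlapped. The log2 difference was 1.21 ± 0.39 (adjusted p = 0.028, limma), a call lost without any 1 of 4 arrays (total replicates 1 or 3, at 1.06 and 1.19, or newly transcribed replicates 2 or 3, at 0.95 and 0.98) and without the filter on low values (adjusted p = 0.064). Without newly transcribed replicate 1 the difference was 1.69. In the 2F experiment Mcl1 measured 8558, 9961 and 9997 against 3220, 3117 and 3267. That is a difference of 1.57 ± 0.09 (adjusted p = 5.8e-07, limma).

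Bcl2l11 in newly transcribed RNA at 30 min ranged from 132 to 292 with a median of 212, and in total RNA from 6.55 to 96.50 with a median of 48.77. The groups did not overlap, and the total RNA arrays of replicates 1, 4 and 7 were the lowest. The log2 difference was 2.41 ± 0.42 (adjusted p = 3.1e-05, limma; adjusted p = 0.013 over set means), and by set 3.60, 1.45 and 2.18. It was 1.74 ± 0.36 at 60 min (adjusted p = 0.0036, limma) and 2.22 ± 0.10 in the 2F experiment (adjusted p = 1.6e-07, limma). The 2 Bcl2l11 probe sets that passed the filter were called higher in each experiment. They ranged from 1.52 to 2.41 at 30 min, 1.74 to 2.33 at 60 min and 2.22 to 2.40 in the 2F experiment. Bcl2l11 thus had the same direction as Mcl1 in each of the 3 labelling experiments.

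The other anti-apoptotic members differed in new RNA by amounts that varied between experiments. Bcl2l1 differed by 0.41 ± 0.22 at 30 min (adjusted p = 0.084, limma), and by set by 1.28, 0.22 and -0.26. Its newly transcribed arrays of replicates 1, 4 and 7 measured 176 to 216, and those of the other sets 74.2 to 84.4. At 60 min the difference was 1.78 ± 0.48 (adjusted p = 0.014, limma), with replicate 1 of the new RNA at 614 against 167 and 219. That call was lost without total replicate 3 (1.42, adjusted p = 0.062, limma) and with the mean of all probe sets (0.95, adjusted p = 0.086). In the 2F experiment, where arrays lay at 269 to 290 against 83.00 to 98.89, it was 1.59 ± 0.10 (adjusted p = 6.3e-07, limma). There the other 2 Bcl2l1 probe sets that passed the filter were not called, and the mean of all probe sets differed by 0.77, short of 2-fold. Bcl2l2, which encodes Bcl-w, differed by 0.95 ± 0.08 at 30 min (adjusted p = 8.2e-10, limma), 1.53 ± 0.34 at 60 min (adjusted p = 0.0050) and 0.84 ± 0.09 in the 2F experiment (adjusted p = 1.5e-05). It passed 2-fold at 60 min only; the enrichment at 2F and at 60 min differed by -0.69 ± 0.41 (adjusted p = 0.45, limma).

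Bad was lower in new RNA. At 30 min it ranged from 30.17 to 52.66 with a median of 40.61 in newly transcribed RNA and from 111 to 200 with a median of 171 in total RNA. The groups were apart, and the difference was -1.90 ± 0.14 (adjusted p = 1.0e-10, limma; adjusted p = 5.6e-04 over set means). It was -1.50 ± 0.47 at 60 min (adjusted p = 0.025, limma), which was lost without total replicate 1 or 3 or newly transcribed replicate 3 (-1.05, -1.33 and -1.39) and without the filter (adjusted p = 0.069). In the 2F experiment it was -2.63 ± 0.18 (adjusted p = 1.2e-06, limma). Both Bad probe sets were called lower in each experiment.

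Bnip3, the mitophagy receptor, was the other member below total RNA throughout. At 30 min it ranged from 165 to 346 with a median of 262 in newly transcribed RNA and from 444 to 729 with a median of 557 in total RNA, with no overlap. The difference was -1.17 ± 0.16 (adjusted p = 1.1e-06, limma; adjusted p = 0.0085 over set means). At 60 min newly transcribed RNA measured 14.31, 116.43 and 122.85 and total RNA 393, 846 and 470. The difference was -3.19 ± 0.71 (adjusted p = 0.0053, limma), and replicate 1 of the new RNA was far below the other arrays; without it the difference was -2.17. In the 2F experiment it was -1.75 ± 0.10 (adjusted p = 4.0e-07, limma).

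The effector Bak1 and the BH3-only member Bid did not keep to a direction. Bak1 was lower in new RNA at 30 min by -1.45 ± 0.51 (adjusted p = 0.013, limma), and that call was lost over set means (adjusted p = 0.16). By set the difference was 0.10, -1.03 and -3.41. Newly transcribed arrays of replicates 1, 4 and 7 measured 304 to 542 and those of replicates 3, 6 and 9 measured 35.63 to 44.82, whereas total RNA in those sets was 314 to 412 and 374 to 450. At 60 min the difference was 0.69 ± 0.52 (adjusted p = 0.30) and in the 2F experiment 0.08 ± 0.12 (adjusted p = 0.53, limma). Bid differed by -0.51 ± 0.09 at 30 min (adjusted p = 4.8e-05, limma, short of 2-fold), 0.29 ± 0.26 at 60 min (adjusted p = 0.40) and -0.09 ± 0.11 in the 2F experiment (adjusted p = 0.46).

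**Figure D3:**
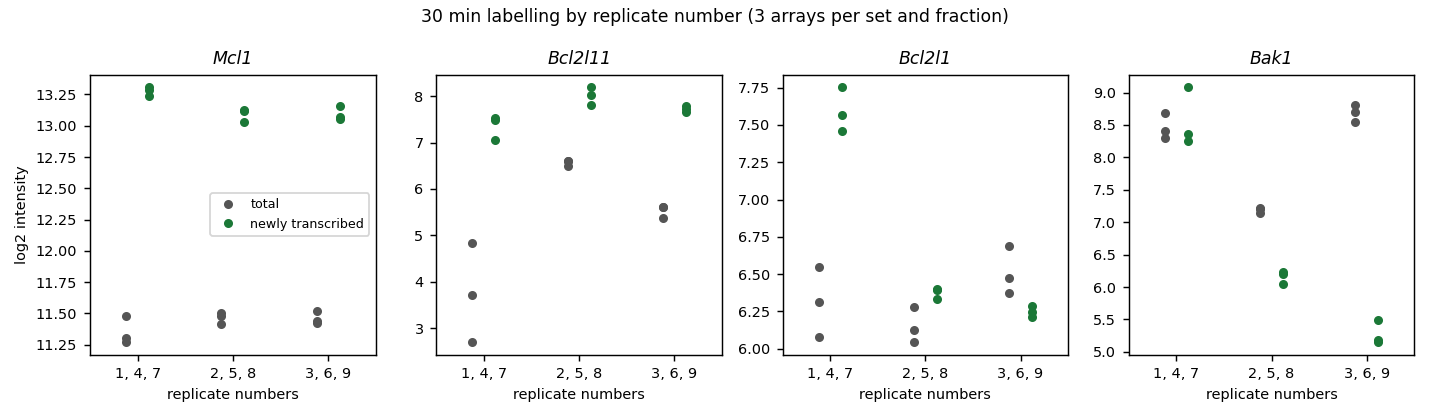
Log2 intensity at 30 min for Mcl1, Bcl2l11, Bcl2l1 and Bak1 by replicate number, 3 arrays per set for total RNA (grey) and newly transcribed RNA (green). Mcl1 kept a similar gap in each set (1.93, 1.63 and 1.64), whereas Bak1 went from 0.10 in the first set to -3.41 in the last.

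Pre-existing RNA at 60 min was compared with total RNA to see which mRNAs were lower in the unlabelled part. This comparison shares its total RNA arrays with that of newly transcribed RNA at 60 min. Bcl2l11 was called lower, 1 of 8 members against 8.82% of all probe sets. Its pre-existing arrays measured 10.28, 22.63 and 23.06 and its total arrays 114, 181 and 116, a log2 difference of -2.93 ± 0.36 (adjusted p = 5.0e-04, limma). The pre-existing arrays were near background, at a mean log2 of 4.13, so Bcl2l11 passed the filter only through total and newly transcribed RNA and the size of the difference is inexact. The other Bcl2l11 probe set that passed the filter was also called lower, at -2.02. Mcl1 measured 1751, 1597 and 1943 against 2813, 4260 and 3370, and every pre-existing array was below every total one. Its headline probe set differed by -0.96 ± 0.39 (adjusted p = 0.14, limma), and 4 of its 6 probe sets were called lower, in a range from -1.94 to 0.30. On the log2 scale Mcl1 stood at 10.78 in pre-existing RNA, 10.77 in untreated total RNA and 11.74 in total RNA at 60 min. For Bcl2l11 these levels were 4.13, 5.73 and 7.06. How far these differences reflect lost unlabelled RNA or a higher level of total RNA was not tested. Bad differed by 1.22 ± 0.47 (adjusted p = 0.13, limma), a change that was called at 1.67 without total replicate 1.

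**Figure D4:**
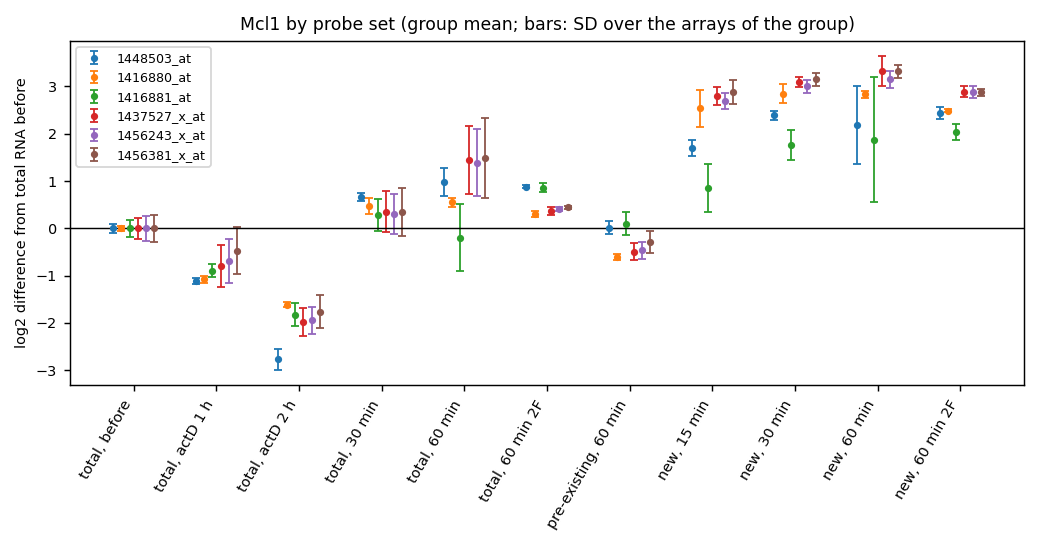
Log2 difference of each Mcl1 probe set from total RNA before the experiment, as group means with SD over the arrays of the group. All 6 probe sets lie below 0 after actinomycin D and above 0 in each newly transcribed group, and they ran from -0.20 to 1.49 in total RNA at 60 min.

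The time of labelling was compared within newly transcribed RNA. From 30 min to 15 min 1 of 8 members was called against 17% of probe sets, and from 30 min to 60 min 3 of 8 against 17%. Bcl2l1 was lower at 15 min, where its 3 arrays measured 29.88, 29.88 and 30.52, by -1.83 ± 0.40 (adjusted p = 0.0028, limma; adjusted p = 0.035 over set means). These arrays had a mean log2 of 4.91, under the filter that the gene passed through the 30 min and 60 min groups, so the size of this difference is inexact too. At 60 min Bcl2l11 was higher by 1.11 ± 0.21 (adjusted p = 8.9e-04, limma; adjusted p = 0.021 over set means), a call lost with the replicate block at 1.00 and without newly transcribed 60 min replicate 3 at 0.95. Bcl2l1 was higher by 1.40 ± 0.40 (adjusted p = 0.014, limma) and Bnip3 lower by -2.07 ± 0.47 (adjusted p = 0.0037), and both calls were lost over set means (adjusted p = 0.088 and 0.076). Without replicate 1 of the 60 min arrays the Bcl2l1 difference was 0.84 and was not called, and the Bnip3 difference was -1.05. Dose and time changed together here, since 15 min and 30 min used 500 µM and 60 min 200 µM.

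Whether enrichment itself differed between experiments was tested as an interaction. Between 60 min and 30 min 1 of 8 members was called against 18.8% of probe sets. That member was Bnip3, at -2.02 ± 0.59 (adjusted p = 0.017, limma). The value was -1.001 without replicate 1 of newly transcribed RNA at 60 min and -1.70 without total replicate 2, neither of which was called. Over set means the adjusted p was 0.29, and 0 probe sets of any gene were called. Between the 2F and the other 60 min experiment 0 of 8 members were called in limma, 0 of 8 had an unadjusted p below 0.05, and 0.0252% of probe sets were called. The intervals were wide, for Bnip3 from -0.56 to 3.44 and for Mcl1 from -0.69 to 1.41.

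Total RNA was compared with the untreated cells to see whether levels held during labelling. In limma 0 of 8 members were called at 30 min (0.725% of all probe sets), at 60 min (8.46%) and in the 2F experiment (1.86%), with 1, 2 and 1 members at an unadjusted p below 0.05. The headline probe set of Mcl1 was higher by 0.66 ± 0.11 at 30 min (adjusted p = 0.0037, limma), 0.98 ± 0.14 at 60 min (adjusted p = 2.1e-04) and 0.88 ± 0.14 in the 2F experiment (adjusted p = 0.0010). These 3 comparisons share their untreated arrays. How far the enrichment of Mcl1 in newly transcribed RNA goes with this higher level was not tested. Over set means the 30 min value had an adjusted p of 0.18. At 60 min Mcl1 passed 2-fold with quantile normalization (1.05) and with median centring (1.04), and without untreated replicate 3 (1.02) or total replicate 1 (1.12). Of the 6 Mcl1 probe sets 3 others were called higher at 60 min and 1 stood at -0.20. In the 2F experiment the 5 others had adjusted p from 0.14 to 0.73. The mean of all 6 differed by 0.40 at 30 min (adjusted p = 0.19, limma), 0.94 at 60 min (adjusted p = 0.0023) and 0.54 in the 2F experiment (adjusted p = 0.12). Without total replicate 1 Bcl2l2 (-1.09) and Bad (-1.11) were also called. Bcl2l11 differed at 60 min by 1.33 ± 0.77 (adjusted p = 0.22, limma), and this was called with the replicate block.

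Ordered by level, Mcl1 had newly transcribed RNA at the top, from 13.21 in the 2F experiment through 13.15 at 30 min, 12.95 at 60 min and 12.47 at 15 min on the log2 scale, with overlapping neighbours. Total RNA at 60 min (11.74), 2F (11.64) and 30 min (11.43) followed, then pre-existing RNA (10.78) beside untreated total RNA (10.77), and then 1 h (9.65) and 2 h (8.00) of actinomycin D, each apart from its neighbour. Bnip3 had the reverse outline, from 9.38 after 2 h of actinomycin D to 5.88 in newly transcribed RNA at 60 min, and its 7 groups of total and pre-existing RNA overlapped with their neighbours. Across the 11 group means the correlation with Mcl1 was 0.94 for Bcl2l11, 0.66 for Bcl2l1, 0.43 for Bcl2l2, -0.10 for Bid, -0.13 for Bak1, -0.72 for Bnip3 and -0.83 for Bad. Among 5426 candidate genes the profiles nearest to Mcl1 were those of Trib2 (0.993), Arid5b (0.992), Errfi1 (0.991), Dusp6 (0.990) and Ier5 (0.990). These correlations describe 11 group means of 1 cell line and carry no test. As reference points, Myc, known for a short-lived mRNA, changed by -5.38 ± 0.19 after 2 h of actinomycin D (adjusted p = 1.1e-07, limma) and Actb by -0.10 ± 0.09 (adjusted p = 0.41). In newly transcribed RNA at 30 min Fos was higher by 2.73 ± 0.11, Myc by 2.77 ± 0.15 and Actb by 0.52 ± 0.06, the last short of 2-fold. Fos in total RNA was also higher than in untreated cells, by 4.92 ± 0.15 at 30 min (adjusted p = 7.1e-13, limma). The Fos values were 3.61 at 60 min and 3.51 in the 2F experiment. Myc in total RNA differed by 0.58 ± 0.25 at 30 min (adjusted p = 0.27, limma). How far the enrichment of Fos goes with that rise was not tested.

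Other genes of the pathway are given by lists. After 2 h of actinomycin D 10.9% of 8151 genes were called lower, and at 30 min of labelling 29.1% of 8226 genes were lower and 14.4% higher in newly transcribed RNA. Of 6 other Bcl2 relatives tested, 0 were called after 2 h of actinomycin D in limma, where 3 had an adjusted p below 0.05 without reaching 2-fold. Among 5 inhibitor of apoptosis genes, Birc2 (-1.58 ± 0.18, adjusted p = 1.1e-04, limma) and Birc3 (-2.30 ± 0.17, adjusted p = 6.6e-06), ubiquitin ligases of NF-kB signalling, fell after 2 h of actinomycin D. Among 8 death receptor genes the adaptors Traf2 (-2.08 ± 0.19) and Daxx (-1.81 ± 0.14) fell, with adjusted p of 2.0e-05 and 9.2e-06 in limma. In newly transcribed RNA at 30 min Cflar, the inhibitor of caspase 8 activation, was higher (1.75 ± 0.11) and Tradd lower (-2.01 ± 0.16).

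Of 7 genes of Mcl1 protein turnover, Fbxw7, a substrate receptor for its degradation, fell after 2 h of actinomycin D (-1.40 ± 0.20, adjusted p = 5.8e-04, limma) and was higher in newly transcribed RNA at 30 min (1.69 ± 0.14). In that RNA 2 of the 7 were higher, the other being the kinase gene Gsk3b (1.13 ± 0.18), and 2 lower, Btrc (-1.10 ± 0.21) and Gsk3a (-1.10 ± 0.19), with a median of -0.33. Of 12 apoptosome and caspase genes 5 were lower in newly transcribed RNA, among them the effector caspase Casp6 (-1.67 ± 0.13) and the mitochondrial proteins Htra2 (-1.67 ± 0.16) and Aifm1 (-1.60 ± 0.17), and 2 were higher, among them Dffa (1.62 ± 0.21), the inhibitor of the caspase-activated DNase. Of 12 mitophagy genes 7 were lower and 0 higher, with a median of -1.18 against -0.33 for all genes. The lower ones included Gabarapl2 (-2.20 ± 0.14) and Gabarap (-2.08 ± 0.18), proteins of the autophagosome membrane. With the actinomycin D arrays 0 of 13 mitophagy genes were called lower at 2 h.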

How the data were processed

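RNA of NIH-3T3 cells was measured on 45 Affymetrix arrays in 11 groups. The authors deposited 1 GCRMA intensity per probe set and array, on a linear scale, per the submitters' processing notes; the version and any scaling between arrays are not given in the sources used here. Array medians ran from 22.80 to 40.25. From these intensities log2 values were taken with no further normalization. Those not marked as controls and averaging at least 5 (log2) over the arrays of a fit were tested with limma 3.58.1 in R 4.3.3 (lmFit, eBayes), with groups as the only term and Benjamini-Hochberg adjustment over all of them. A change was called at an adjusted p below 0.05 and a fold of 2 or more. The number of arrays limits the precision, and a probe set near background gives no exact fold. The fit was tested on simulated data.

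Of 31390 non-control probe sets 25031 had 1 gene symbol, 690 several and 5669 none. Every member with a probe set of its own was reported by its headline probe set, and other probe sets where stated. Those not described include the other probe sets of Bcl2l2, Bak1 and Bid, near background at mean log2 of 2.35, 2.67 and 2.89. The members and gene lists were chosen with earlier results of these data known. From the lists up to 4 genes with the largest called changes were named. Deviations from the group mean were correlated between same-numbered replicates, and comparisons with every pair above 0.1 counted as paired. These were actinomycin D at 1 h and 2 h against before, and newly transcribed and pre-existing against total RNA at 60 min. Total RNA at 60 min against before and newly transcribed RNA between 30 min and 60 min were the others. Alternatives changed the normalization, the filter, the scale, the probe set, the samples, the call rule, the replicate block and single arrays.

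Half-lives were planned from the 60 min fractions, scaled by the line of pre-existing on newly transcribed ratios. Across 9047 probe sets that line had r = -0.0881, too weak to scale the fractions, and the headline Mcl1 probe set was higher in total RNA after labelling than before. These half-lives are therefore not used as results and stand only among the alternatives; the Mcl1 value in the results is the alternative from actinomycin D.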

Additional observations from a re-analysis of the deposited data

Results flagged for a closer look

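For 2 members the enrichment of newly transcribed over total RNA differed between 60 min and 30 min of labelling by the interaction test in limma. For Bid the log2 difference was 0.797 ± 0.23 (adjusted p = 0.015), from -0.51 at 30 min to 0.29 at 60 min, short of 2-fold. For Bnip3 it was -2.02 ± 0.59 (adjusted p = 0.017), from -1.17 to -3.19. Over set means of the 30 min arrays the adjusted p was 0.28 for Bid and 0.29 for Bnip3, and 4sU dose differed along with time. In the groups of 9 arrays no member had an array that stood out by Dixon's test. That test looks for an extreme array on its own, so it could miss sets of 3 arrays that differ together. Groups of 3 were not tested.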

How the results depend on the processing

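No called change of a member reversed under the alternatives run. Median centring moved every change by 0.33 at 2 h of actinomycin D, 0.31 between 1 h and 2 h, -0.30 in new against total RNA at 30 min, -0.18 in the 2F experiment, 0.29 in new RNA at 60 min against 30 min and -0.15 in total RNA 2F, and the interactions by 0.24 and -0.13. It turned the sign of 9 uncalled values, among them Bid at both times of actinomycin D and Mcl1 at 60 min against 30 min (0.09). Counts of called members that moved by over 1.5 times were these. In 1 fit over all 45 arrays 1 member was called at 1 h of actinomycin D, 2 at 2 h, 2 in pre-existing RNA and 3 in the interaction of 60 min with 30 min. With the mean of all probe sets of a gene, fewer members passed the filter and were tested. Then 0 of 4 were called at 1 h of actinomycin D and 1 of 4 between 1 h and 2 h. In new against total RNA at 60 min 3 of 4 were called, and in new RNA at 60 min against 30 min 1 of 6. Without the filter 2 were called at 2 h of actinomycin D, the second being Bcl2l11. With a mean log2 of 7 or more, where fewer members were tested, 3 were called at 30 min, 3 in the 2F experiment, 0 in pre-existing RNA and 0 at 15 min against 30 min. With adjusted p alone 2 were called at 2 h of actinomycin D, 2 at 15 min against 30 min, 1, 2 and 1 in total RNA at 30 min, 60 min and 2F against before, and 2 in the interaction; this rule called 5227 probe sets in all at 2 h (1500 with the fold) and 5799 at 15 min against 30 min (2747). With the replicate block 1 was called in total RNA at 60 min (Bcl2l11) and 2 in the interaction (Bnip3, and Bcl2l1 at 1.36). It also took Bcl2l11 at 60 min against 30 min out of the calls (1.00) and changed no other call of the paired comparisons. Quantile normalization and median centring each gave 1 in total RNA at 60 min, median centring 3 and log2(intensity + 16) 2 in the interaction. With 30 min arrays averaged by set, added after seeing the data, 1 was called at 60 min against 30 min and 0 in the interaction, where all probe sets gave 1798 (2740 before averaging) and 0 (2991), so the lost calls are not particular to the members.

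Leaving out 1 array at a time gave 1 to 2 members at 2 h of actinomycin D, 3 to 6 in new against total RNA at 60 min, 1 to 2 in pre-existing RNA, 0 to 3 in total RNA at 60 min and 0 to 3 in the interaction. The 3 at 60 min came without total replicate 3. The planned half-lives from the 60 min fractions were not used. For Mcl1 that calculation gave 625 min, against 49.3 min from pre-existing RNA and 43.3 min from actinomycin D. The values from pre-existing RNA rest on the intercept (1.19) of the same weak line and are no separate check. They also use total RNA at 60 min, where Mcl1 stood at 11.74 on the log2 scale against 10.77 before labelling. From pre-existing RNA the value was 1221 min for Bcl2l1, 18.8 min for Bcl2l11 and 355 min for Bnip3, and from actinomycin D 142 min for Bcl2l1 and 382 min for Bid. Without replicate 2 or 3 the values ran from 240 to 4811 min for Mcl1, 91.7 to 3086 min for Bcl2l1, 203 to 3503 min for Bcl2l2, 114 to 3375 min for Bcl2l11, 2543 to 21970 min for Bad, 279.9 to 5323 min for Bak1, 529 to 6919 min for Bid and 5758 to 133400 min for Bnip3. Without replicate 1, and with the line over probe sets of mean log2 9 or more, the line had no falling slope and gave no value.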
